A study of Rattus norvegicus with 19 samples.

Results

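A set of 7 gene IDs that mark GABAergic and glutamatergic neurons were followed through the brain libraries of 19 female Wistar rats. They were taken by Ensembl ID from the 32883 IDs of the count table: 3 GABAergic genes (Gad1, Gad2 and Slc32a1), Pvalb, which marks a subset of GABAergic cells, and 3 glutamatergic genes (Slc17a7, Slc17a6 and Camk2a). All 7 were found, and all 7 passed the filter on low counts. The symbols came with the list of IDs. The rat gene table used here holds all 7 symbols but 0 Ensembl IDs, so it neither contradicted a pairing nor allowed it to be checked. The IDs are, in that order, ENSRNOG00000000007, ENSRNOG00000018200, ENSRNOG00000015393, ENSRNOG00000006471, ENSRNOG00000020650, ENSRNOG00000016147 and ENSRNOG00000018712.

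The animals were daughters of fathers in 1 of 4 groups: ELS-HFD (early life stress and a high-fat diet, 5 libraries), ELS (early life stress, 5), HFD (high-fat diet, 4) and control (neither, 5). The daughters themselves ate chow in all groups, and all had been run on an elevated plus maze at postnatal day 57 ± 1, per the labels. The series text names the amygdala and male rats and describes the stress as maternal separation. The sample labels say brain, whole tissue lysate and female offspring, and these were followed. No father or litter is given for any library, so sisters may be among them, and the p-values below measure no more than the spread of these animals.

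Neurons that release GABA make it from glutamate with 2 decarboxylases, encoded by Gad1 and Gad2, and load it into vesicles with the transporter encoded by Slc32a1. Parvalbumin, the calcium-binding protein of Pvalb, marks fast-spiking interneurons. Glutamatergic neurons fill their vesicles through VGLUT1 (Slc17a7), the main form in cortex, hippocampus and the basolateral amygdala, or through VGLUT2 (Slc17a6), the main form in thalamus and hypothalamus. Camk2a encodes a calcium-dependent kinase that is abundant at forebrain excitatory synapses. Within the amygdala the basolateral nuclei are mostly glutamatergic and the central nucleus mostly GABAergic, and the striatum beside it is GABAergic, so the ratio of these transcripts in a piece of tissue depends on which nuclei it holds.

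Upstream windows are shown for Gad2 and Slc32a1, which were positively correlated over the libraries, and for Slc17a7, which was negatively correlated with both. Gad1, the gene closest to Gad2, is not shown, nor are Pvalb and Camk2a, because their windows overlap the annotated gene. They were matched by symbol in RefSeq's GRCr8 assembly, which is not the build of the counts (Rnor_6.0), and hold only bases outside the annotated gene, 250 each for Gad2 and Slc32a1 and 217 for Slc17a7. Capitals mark GC boxes (GGGCGG on either strand).
Gad2 (chr17:89671468-89671717, + strand): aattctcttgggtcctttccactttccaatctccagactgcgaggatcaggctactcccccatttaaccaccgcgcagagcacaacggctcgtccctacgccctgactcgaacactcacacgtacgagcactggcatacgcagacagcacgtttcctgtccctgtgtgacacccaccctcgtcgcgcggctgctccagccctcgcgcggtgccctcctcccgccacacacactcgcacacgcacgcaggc
Slc32a1 (chr3:167686995-167687244, + strand): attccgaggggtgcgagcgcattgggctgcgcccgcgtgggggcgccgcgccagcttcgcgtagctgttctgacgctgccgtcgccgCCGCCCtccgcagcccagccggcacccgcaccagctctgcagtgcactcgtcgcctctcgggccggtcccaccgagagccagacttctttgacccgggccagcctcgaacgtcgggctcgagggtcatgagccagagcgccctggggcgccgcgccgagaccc
Slc17a7 (chr1:104785955-104786171, + strand): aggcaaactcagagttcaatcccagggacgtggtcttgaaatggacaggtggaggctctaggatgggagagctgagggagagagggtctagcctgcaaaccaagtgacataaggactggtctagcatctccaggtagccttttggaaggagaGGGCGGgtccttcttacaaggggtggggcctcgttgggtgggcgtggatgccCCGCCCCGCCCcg

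The Slc17a7 window held 3 GC boxes, 2 of which overlap, the Slc32a1 window held 1 and the Gad2 window 0. A GC box occurred in 26.9% of the 33469 RefSeq promoter windows of 217 bases and in 30.5% of those of 250 bases. None of the 3 windows held TATAAA (in 12.9% of the windows of 250 bases), TAATTA (4.86%) or TGACGTCA (1.59%), searched on both strands. Among windows of 217 bases, the length for Slc17a7, these shares were 11.0%, 4.43% and 1.19%. GC content was 62.0% upstream of Gad2, 73.6% upstream of Slc32a1 and 59.4% upstream of Slc17a7, where the median window of 250 bases has 51.2%. The window of Slc17a6, not printed, held none of the 4 motifs and had 50.8% GC.

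Libraries held between 7034837 and 20266594 counts. HFD replicate 1 and ELS-HFD replicates 2 and 3 stood apart on the first principal component of all tested IDs (113.69, 49.23 and 47.82, the other 16 between -29.02 and 10.59), and results that rest on them are given with and without them. The top 10 IDs of HFD replicate 1 held 25.8% of its counts, against at most 16.7% elsewhere, which lowers the CPM (counts scaled to the column sum) of its other genes. In bulk tissue, fewer cells of a type and less RNA per cell cannot be told apart. The counts behind the members ranged from 134 to 485 reads for Slc17a6 and from 206 to 548 for Pvalb, and no library had fewer than 1438 for any other member.

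Gad2, the decarboxylase gene tied to vesicular GABA, was the most variable of the GABAergic synthesis genes. It was at 395, 514, 475, 478 and 424 CPM in the ELS-HFD libraries (replicates 1 to 5). In the ELS libraries it was at 986, 677, 485, 982 and 644 CPM. The HFD libraries were at 334, 594, 366 and 568.4 CPM, and the control libraries at 541, 590, 329, 603 and 637 CPM. ELS replicates 1 and 4 were far above every other library, ELS replicate 3 lay within the range of the ELS-HFD libraries, and the other 4 ELS libraries lay above all 5 ELS-HFD libraries. Group means were 457 ± 47.3 CPM in ELS-HFD, 755 ± 222 in ELS, 465.7 ± 134 in HFD and 540 ± 123 in control (SD, n = 5, 5, 4 and 5).

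Gad1, which makes most of the brain's GABA, followed Gad2 library by library at a smaller amplitude. It was at 263, 302, 301, 273 and 275 CPM in the ELS-HFD libraries and at 457, 391, 290, 431 and 343 CPM in the ELS libraries. The HFD libraries had 212, 320, 254 and 295 CPM, and the control libraries 300, 320, 256, 329 and 352 CPM. The same 2 ELS libraries were highest, and the means were 283 ± 17.5 CPM in ELS-HFD, 382 ± 67.3 in ELS, 270 ± 47.5 in HFD and 311 ± 36.2 in control (SD, n = 5, 5, 4 and 5). Over all 19 libraries Gad2 spanned a 3.0-fold range and Gad1 a 2.16-fold range.

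Slc32a1 was at 145, 232, 229, 148 and 178 CPM in the ELS-HFD libraries, at 299, 241, 162, 313 and 209 CPM in the ELS libraries, at 299.7, 195, 135 and 142 CPM in the HFD libraries and at 193, 195, 137, 216 and 289.6 CPM in the control libraries. ELS replicates 1 and 4 were again among the 3 highest. The third was HFD replicate 1, the library in which Gad1 was at its lowest. In CPM from column sums Slc32a1 was thus high in that library, while Gad1 and Gad2 were low. Its top 10 IDs held 25.8% of the counts, which lowers the CPM of other genes. How far the low rank of Gad1 and Gad2 there depended on the scaling was not tested.

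Pvalb, the marker of fast-spiking interneurons, had no clear relation to Slc32a1 over the 19 libraries. It was at 29.1, 29.3, 29.4, 30.0 and 41.9 CPM in the ELS-HFD libraries and at 22.6, 25.7, 30.4, 19.9 and 24.3 CPM in the ELS libraries. The HFD libraries had 36.8, 22.3, 24.9 and 27.6 CPM, and the control libraries 27.0, 23.9, 31.8, 20.96 and 21.5 CPM. Its lowest value was in ELS replicate 4 and its highest in ELS-HFD replicate 5. HFD replicate 1, second for Slc32a1, was also second for Pvalb.

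Slc17a7, the transporter gene of cortical-type glutamatergic neurons, ran opposite to the decarboxylases. It was at 1391, 1302, 1247, 1631 and 1306 CPM in the ELS-HFD libraries. In the ELS libraries it was at 722, 1251, 1575, 835 and 1209 CPM. The HFD libraries had 1127, 1394, 1597 and 1426 CPM, and the control libraries 1399.7, 1389, 1673, 1311 and 1284 CPM. The 2 lowest values of the series were in ELS replicates 1 and 4, the libraries with most Gad2, and the highest was in control replicate 3, the library with least Gad2. Group means were 1376 ± 152 CPM in ELS-HFD, 1118 ± 343 in ELS, 1386 ± 194 in HFD and 1411 ± 154 in control (SD, n = 5, 5, 4 and 5).

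Slc17a6 ranged from 13.2 to 27.2 CPM in the ELS-HFD libraries, from 10.6 to 34.4 in ELS, from 17.8 to 28.8 in HFD and from 18.2 to 31.9 in control. ELS replicates 1 and 4 were the highest for this second vesicular glutamate transporter (34.4 and 32.7 CPM), as they were the lowest for Slc17a7. ELS replicate 2 was the lowest of all libraries.

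Camk2a separated the 3 libraries that stood apart from all others. It was at 755, 494, 475, 1069.99 and 864 CPM in the ELS-HFD libraries, at 727, 993, 1129.9, 777 and 915 CPM in the ELS libraries, at 216, 1006, 987 and 765 CPM in the HFD libraries and at 993, 1038, 868, 813 and 908 CPM in the control libraries. HFD replicate 1 was lowest at 216 CPM, ELS-HFD replicates 3 and 2 came next, and the other 16 libraries lay between 727 and 1129.9 CPM. The range over all libraries was 5.23-fold, the widest of the 7 genes, and 1.56-fold in the 16, the narrowest. Slc17a7 in the same 3 libraries was at 1127, 1302 and 1247 CPM, inside the range of the rest.

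**Figure D1:**
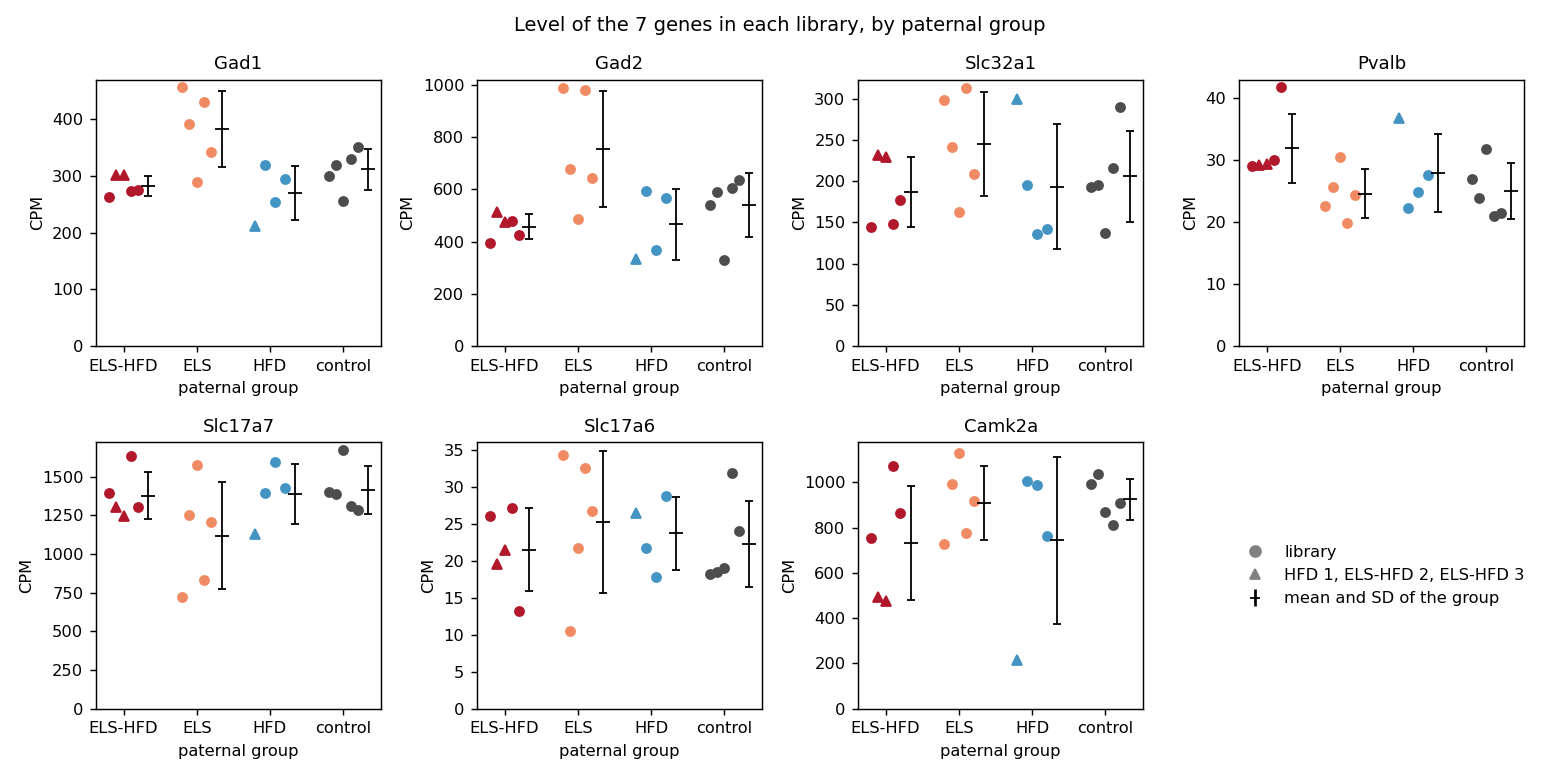
CPM of each gene (vertical axis, from 0) in each library, by paternal group; triangles are the 3 libraries that stood apart, and black marks give the mean and SD of a group. ELS replicates 1 and 4 are the 2 highest points for Gad1 and Gad2 and the 2 lowest for Slc17a7, and the 3 triangles are the lowest points for Camk2a.

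The levels of the 7 genes were then compared with each other over the libraries, as log2 CPM on library sizes scaled by TMM (trimmed mean of M-values) with a prior count of 2. Of 21 pairs, 9 had a Pearson correlation with a Benjamini-Hochberg adjusted permutation p under 0.05. Gad1 and Gad2 had r = 0.95 and Spearman's rho = 0.96 (n = 19, permutation p = 1e-05 for both, the smallest that 100000 permutations can give, adjusted p = 0.00021). Of the 15371 other IDs tested, Gad2 was the one closest to Gad1, and Gad1 was the third closest to Gad2. Without ELS replicates 1 and 4, the 2 libraries farthest from the median of Gad1, r was 0.91. From deviations around the group means, permuted within groups, it was 0.92 (permutation p = 1e-05).

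Slc32a1 correlated with Gad1 at r = 0.63 (rho = 0.73, permutation p = 0.00392 and 0.00055, adjusted p = 0.0137 and 0.00289) and was the 388th closest ID to it. Without the 3 libraries that stood apart it was at r = 0.92 (n = 16, permutation p = 1e-05) and the 6th closest. Slc32a1 and Gad2 had r = 0.58 (rho = 0.64, permutation p = 0.0092 and 0.00366, adjusted p = 0.0232 and 0.011), which was 0.42 without ELS replicates 1 and 4 and 0.88 in the 16 libraries. Slc32a1 was thus more closely correlated with Gad1 and Gad2 in the 16 libraries than in the full set. The r of Gad1 with Gad2 hardly changed (0.955 against 0.954).

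Slc17a7 lay at the other end of the list. Its correlation was -0.82 with Gad1 (rho = -0.66, permutation p = 3e-05 and 0.00295, adjusted p = 0.000315 and 0.0103) and -0.82 with Gad2 (rho = -0.68, permutation p = 5e-05 and 0.00192, adjusted p = 0.00035 and 0.00806). Only 5 of the 15371 other IDs were more negatively correlated with Gad1. The correlations weakened to -0.59 and -0.60 without ELS replicates 1 and 4. With CPM from column sums they were -0.68 and -0.72 over all 19 libraries (rho = -0.61 and -0.53, adjusted permutation p = 0.0242 and 0.0499 for rho). Without those 2 libraries r was -0.24 and -0.31 on that scale. There the Pearson correlation of Gad1 or Gad2 with Slc17a7 thus rested largely on these 2 libraries, and rho was not computed without them. Slc32a1 and Slc17a7 had r = -0.57 (rho = -0.62, permutation p = 0.00996 and 0.00585, adjusted p = 0.0232 and 0.0154), which was -0.70 without the 2 libraries farthest from the median of Slc32a1 (ELS replicate 4 and HFD replicate 1). With column sums this pair had r = -0.81 (rho = -0.89, permutation p = 1e-05 for both), and -0.77 without the same 2 libraries.

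Pvalb correlated negatively with both decarboxylase genes, at r = -0.70 with Gad1 and -0.72 with Gad2 (rho = -0.79 and -0.81, permutation p from 8e-05 to 0.00093, adjusted p from 0.00084 to 0.00391). Without ELS replicates 1 and 4 these were -0.63 and -0.65. Pvalb and Slc32a1 had r = -0.09 (rho = -0.37, permutation p = 0.709 and 0.117, adjusted p = 0.784 and 0.189), which was -0.55 without ELS replicate 4 and HFD replicate 1 and -0.73 in the 16 libraries (permutation p = 0.0012, adjusted p = 0.0028). Camk2a correlated with Slc17a7 at r = 0.18 (rho = 0.45, permutation p = 0.439 and 0.0559, adjusted p = 0.576 and 0.0978), which was 0.19 without ELS replicates 1 and 4. In the 16 libraries r was 0.67 (permutation p = 0.00199, adjusted p = 0.00418), and 0.40 when ELS replicates 1 and 4 were left out as well. Slc32a1 and Camk2a had r = -0.60 (rho = -0.46, permutation p = 0.0059 and 0.0472, adjusted p = 0.0177 and 0.0924), which rested on the libraries that stood apart: it was -0.30 in the 16 (permutation p = 0.261). Slc17a6 correlated with no other member at an adjusted p under 0.05, and its r with Slc17a7 was -0.26 (rho = -0.05, permutation p = 0.283 and 0.838, adjusted p = 0.396 and 0.882), against 0.21 without ELS replicates 1 and 4. Joint variation of the 2 transporter genes of glutamatergic neurons was therefore not shown.

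**Figure D2:**
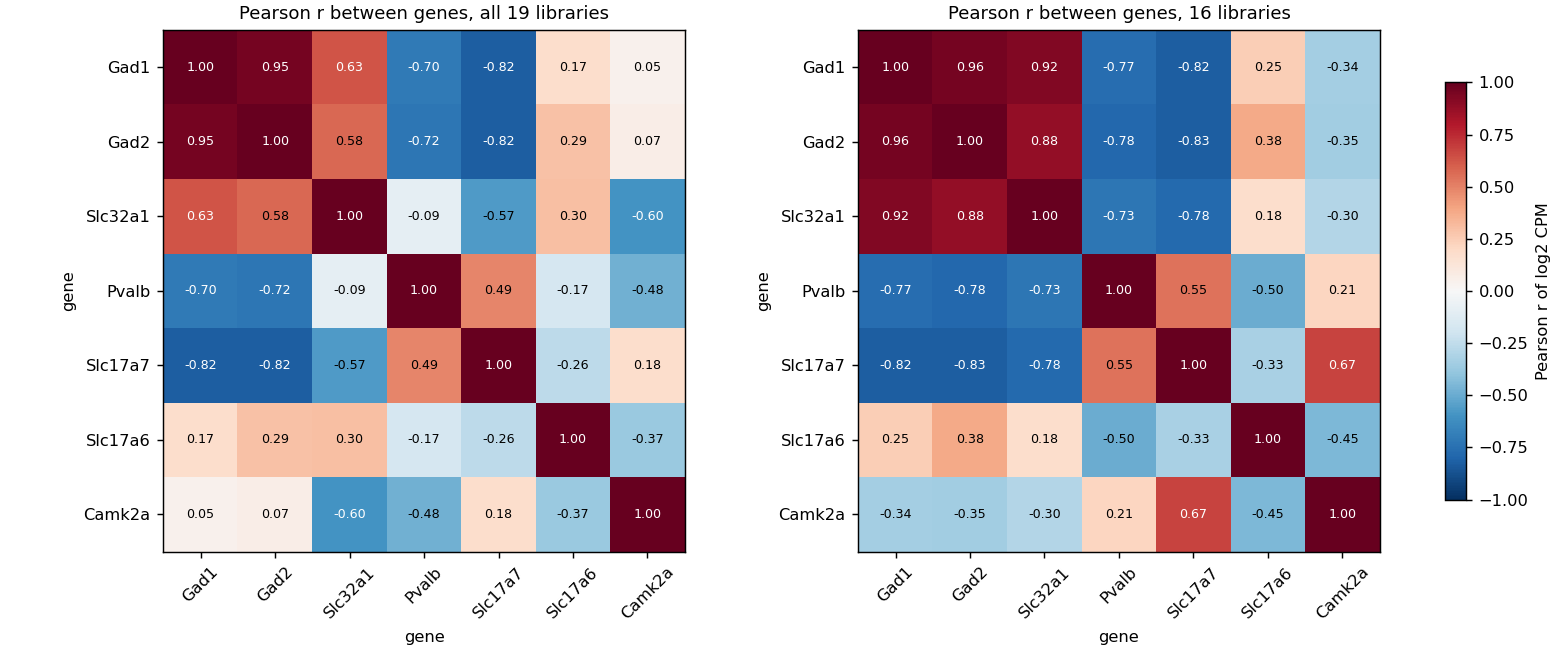
Pearson r of log2 CPM between each pair of the 7 genes over all 19 libraries (left) and over the 16 left when the libraries that stood apart are omitted (right). Gad1, Gad2 and Slc32a1 form a block of positive values, in which the pairs with Slc32a1 are tighter on the right (0.63 against 0.92 for Gad1 with Slc32a1). Slc17a7 is negative with all 3.

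**Figure D3:**
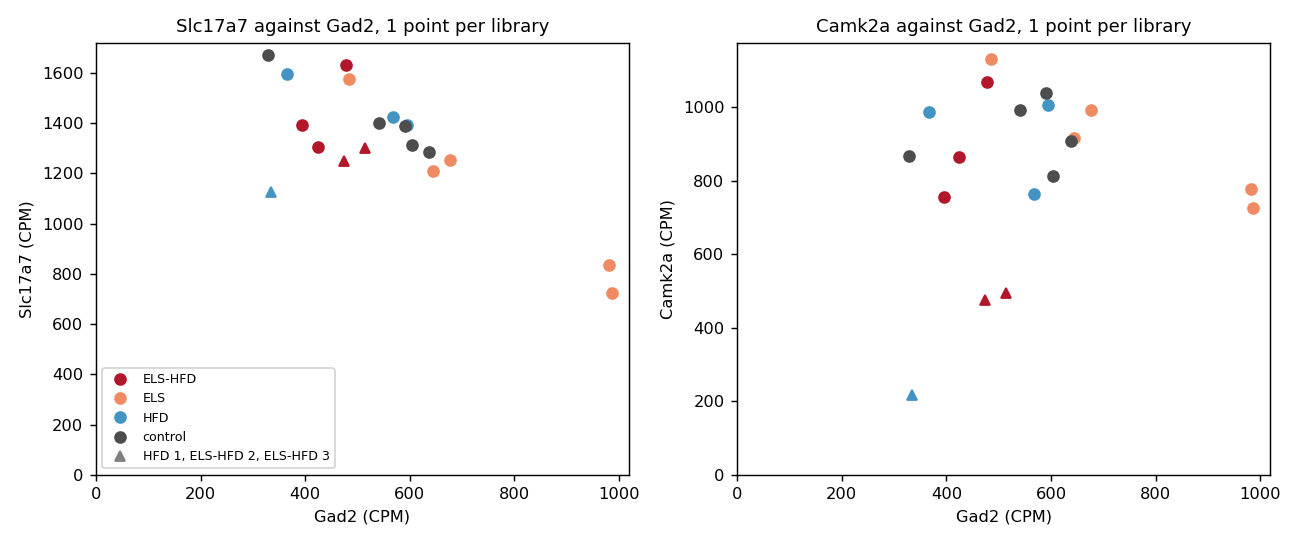
Slc17a7 (left) and Camk2a (right) against Gad2, all in CPM with axes from 0 and 1 point per library, coloured by paternal group; triangles are the 3 libraries that stood apart. ELS replicates 1 and 4 lie alone at the lower right of the left panel (722 and 835 CPM of Slc17a7), and the triangles lie alone at the bottom of the right panel.

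The balance of the kinds was summarised as the mean log2 CPM of Gad1, Gad2 and Slc32a1 minus that of Slc17a7, Slc17a6 and Camk2a (prior count 0.5), a difference in which library scaling cancels. It is a score over genes chosen with earlier results known and is given without a test. The ELS-HFD libraries were at -0.29, 0.50, 0.45, -0.43 and 0.16, and the ELS libraries at 0.97, 0.76, -0.26, 0.88 and 0.21. The HFD libraries were at 0.57, 0.09, -0.39 and -0.13, and the control libraries at 0.10, 0.15, -0.42, 0.11 and 0.40. ELS replicates 1, 4 and 2 were the 3 highest, the 3 libraries that stood apart came next, and all groups overlapped.

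The group means were 0.08 ± 0.43 in ELS-HFD, 0.51 ± 0.52 in ELS, 0.04 ± 0.41 in HFD and 0.07 ± 0.30 in control (SD, n = 5, 5, 4 and 5). ELS exceeded control by 0.44, close to the pooled SD of 0.43, with 3 of 5 ELS libraries above the highest control. Among these, ELS replicate 2 had the lowest Slc17a6 of the series, at 134 reads. With Camk2a as the only glutamatergic gene that library was at -1.31, within the control range of -1.94 to -1.18. With Slc17a7 alone it was at -1.65, barely above the highest control at -1.68. ELS-HFD was 0.43 below ELS (difference -0.43, pooled SD 0.48), and the difference was -0.70 without the 3 libraries that stood apart. The differences of HFD from control (-0.03), ELS-HFD from control (0.01) and ELS-HFD from HFD (0.04) were below a pooled SD of 0.35 or more. Without the 3 libraries they were -0.21, -0.26 and -0.05.

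The high balance of the 3 libraries that stood apart came with low Camk2a. That of ELS replicates 1 and 4 came with high GABAergic genes as well as low Slc17a7. Their mean log2 CPM of Gad1, Gad2 and Slc32a1 was 9.002 and 8.994, above the control range of 7.818 to 8.651. Their mean of the 3 glutamatergic genes was 8.036 and 8.113, below the control range of 8.198 to 8.339. In that mean Slc17a6, highest in these libraries, partly offset the low Slc17a7. Set against Slc17a7 alone, the GABAergic genes gave -1.98 and -1.96 in ELS-HFD replicates 2 and 3 and -2.03 in HFD replicate 1, within the control range of -2.89 to -1.68, and -0.49 and -0.71 in ELS replicates 1 and 4, above it. On that measure ELS exceeded control by 0.72 and ELS-HFD was 0.84 below ELS (difference -0.84). Set against Camk2a alone, the same 3 libraries were at -0.58, -0.57 and 0.36, above the control range of -1.94 to -1.18. ELS replicates 1 and 4 were also above that range, at -0.50 and -0.61. On this measure ELS exceeded control by 0.37, and ELS-HFD lay only 0.13 below ELS (difference -0.13), with means of -1.28 ± 0.66 in ELS-HFD, -1.15 ± 0.61 in ELS and -1.53 ± 0.33 in control (SD, n = 5 each). With all libraries kept, the size of the ELS-HFD difference from ELS therefore depended on which glutamatergic gene was used. Within ELS-HFD, replicates 2 and 3 were the highest against Camk2a. ELS-HFD replicates 1, 4 and 5 were at -1.61, -1.996 and -1.65 on that measure, each below the ELS mean. ELS replicate 3 was as low, at -1.995. The group difference against Camk2a alone was not computed without ELS-HFD replicates 2 and 3, so whether its small size rested on them was not tested.

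Across the 19 libraries the balance had r = -0.20 with log2 library size and 0.14 with the log2 share of the 10 most abundant IDs. With log2 CPM of ENSRNOG00000016275, an ID with no symbol here that was chosen after its values were seen, it had r = 0.03. These r values are descriptions over libraries, with no test. That ID was at 0.753, 855, 821, 5.08 and 11277 CPM in the ELS-HFD libraries and at 7.24, 1.74, 0.909, 1.15 and 4672 CPM in the ELS libraries. It was at 1.77, 2.55, 1.53 and 0.694 CPM in the HFD libraries and at 4715, 2409, 1111, 891 and 319 CPM in the control libraries. All 4 HFD libraries and 4 of 5 ELS libraries thus lay below every control library, and its part in the differences between groups was not tested. Whether the tissue taken held different nuclei in different animals was not tested. Among IDs outside the 7, ENSRNOG00000003800 had the highest r with the balance (0.92), at 49.2, 53.9 and 41.1 CPM in ELS replicates 1, 2 and 4 against 7.15 to 26.6 CPM in the control libraries. ENSRNOG00000016244 had the lowest (-0.89), at 213 and 240.4 CPM in ELS replicates 1 and 4 against 332 to 401 CPM in the control libraries. Both were chosen by that rank.

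**Figure D4:**
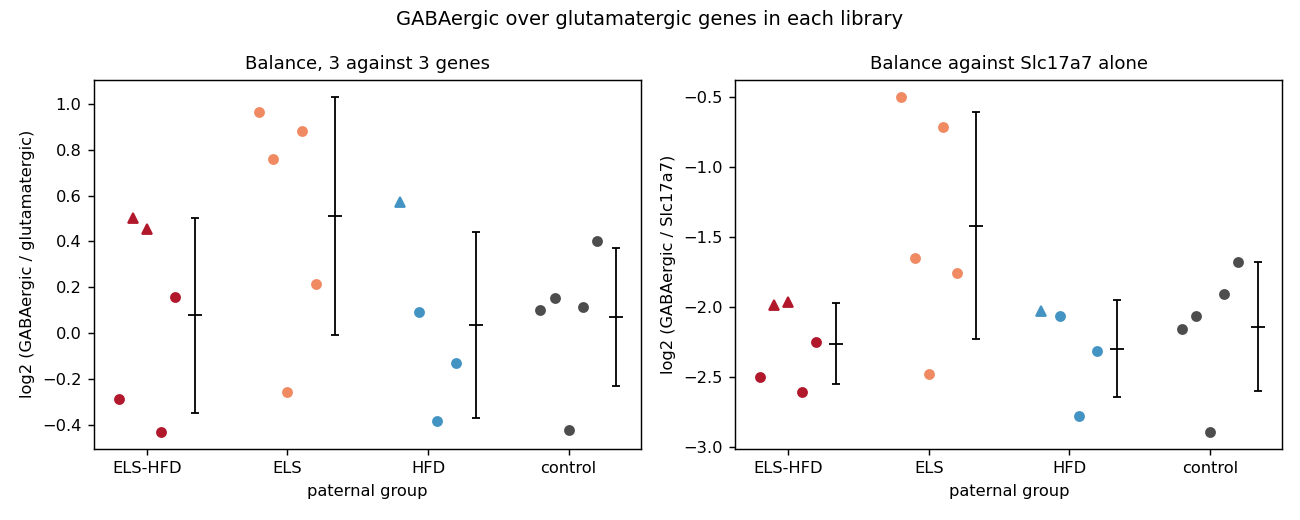
Log2 balance of GABAergic over glutamatergic genes in each library, by paternal group, against the 3 glutamatergic genes (left) and against Slc17a7 alone (right); triangles are the 3 libraries that stood apart and black marks the mean and SD of a group. The triangles lie above 0.45 on the left and fall back among the other libraries on the right, where ELS replicates 1 and 4 (-0.49 and -0.71) stay apart.

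Whether each gene differed between groups was read from 1 edgeR quasi-likelihood fit over 15372 IDs and all 19 libraries, with p-values adjusted by Benjamini-Hochberg over all IDs. In this fit none of the 7 genes passed an adjusted p of 0.05 in any of 6 comparisons, and neither did any other ID (0%). Counts at an unadjusted p under 0.05 are given below for description. DESeq2 called none of the 7 either, and between 0 and 141 of all IDs in a comparison.

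ELS-HFD against ELS asks what the father's diet adds to his early stress, and of the 5 pairwise comparisons it held the largest difference in Gad1 and in Gad2. The fitted log2 fold change was -0.68 ± 0.19 (SE) for Gad2 and -0.39 ± 0.11 for Gad1 (edgeR adjusted p = 0.206 for both), -0.35 ± 0.26 for Slc32a1 (adjusted p = 0.433), 0.41 ± 0.19 for Pvalb (adjusted p = 0.245) and 0.33 ± 0.17 for Slc17a7 (adjusted p = 0.267). Camk2a had -0.28 ± 0.27 and Slc17a6 -0.17 ± 0.27. At an unadjusted p under 0.05 were 3 of the 7 (Gad1 and Gad2 lower, Pvalb higher; 3 by DESeq2 too), where 19.8% of all IDs were (11.0% lower, 8.73% higher). The CPM of ELS-HFD and ELS overlapped for all 7 genes, whereas 7.03% of IDs had groups that did not overlap. The median of the 7 was -0.28, that of all IDs 0.01.

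In the edgeR fit over the 4 groups, whether these genes passed an adjusted p of 0.05 depended on 1 library outside the comparison. Without HFD replicate 1, which shares the estimate of the spread, edgeR gave Gad2 -0.66 ± 0.19 (adjusted p = 0.0307), Gad1 -0.38 ± 0.11 (adjusted p = 0.0315) and Pvalb 0.42 ± 0.14 (adjusted p = 0.0467), and it called 15.5% of all IDs. Without ELS-HFD replicates 2 and 3 as well, Gad2 was at -0.77 ± 0.23 (edgeR adjusted p = 0.144) and Gad1 at -0.47 ± 0.13 (adjusted p = 0.13), Slc32a1 at -0.61 ± 0.22 (adjusted p = 0.171), and 0 of the 7 were called. An edgeR fit to ELS-HFD and ELS alone, which also leaves out HFD replicate 1, called 0 of the 7. Its adjusted p was 0.0593 for Gad2 and 0.0711 for Gad1. The DESeq2 Wald test on all libraries gave adjusted p = 0.0640 for Gad2 and 0.0699 for Gad1. Pvalb was at 0.31 without ELS-HFD replicate 5 (edgeR unadjusted p = 0.124), and its unadjusted p was also above 0.05 without ELS-HFD replicate 4 or ELS replicate 1, 4 or 5.

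ELS against control asks what the father's early stress alone goes with. The log2 fold change was 0.44 ± 0.19 (SE) for Gad2, 0.25 ± 0.11 for Gad1 and -0.37 ± 0.17 for Slc17a7 (edgeR adjusted p = 0.913 for each). At an unadjusted p under 0.05 were these 3 of the 7 (3 by DESeq2 too), where 4.35% of all IDs were (2.20% higher, 2.15% lower). Slc32a1 had 0.20 ± 0.26, Slc17a6 0.13 ± 0.27, Pvalb -0.07 ± 0.19 and Camk2a -0.06 ± 0.27. All 3 differences rested in part on ELS replicates 1 and 4: Slc17a7 was at -0.24 without ELS replicate 1, Gad2 at 0.33 without ELS replicate 4, and both were larger, at -0.54 and 0.56, without ELS replicate 3. Without ELS replicate 1, ELS replicate 4, control replicate 1 or control replicate 3, each of Gad1, Gad2 and Slc17a7 had an edgeR unadjusted p above 0.05, from 0.0533 to 0.124. The groups overlapped for all 7, where 3.30% of IDs did not. This comparison and that of ELS-HFD with ELS share the same 5 ELS libraries, so their opposite signs are not independent. The median of the 7 was 0.13, that of all IDs -0.0022.

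In HFD against control the 7 fold changes ran from -0.26 ± 0.29 (SE) for Camk2a to 0.30 ± 0.20 for Pvalb, with edgeR adjusted p from 0.665 to 0.933. None of the 7 was at an unadjusted p under 0.05 (none by DESeq2), where 7.79% of all IDs were. The groups overlapped for all 7, where 2.69% of IDs did not. HFD replicate 1 decided both ends: without it Camk2a was at 0.01 and Pvalb at 0.01, and Slc32a1 was at -0.37 without it against 0.08 with it.

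For ELS-HFD against control the fold changes ran from -0.34 ± 0.27 (SE) for Camk2a to 0.34 ± 0.19 for Pvalb, with Gad2 at -0.24 ± 0.19 and Slc17a7 at -0.04 ± 0.17 (edgeR adjusted p from 0.839 to 0.977). None of the 7 was at an unadjusted p under 0.05 (none by DESeq2), where 4.18% of all IDs were. The groups overlapped for all 7, where 1.18% of IDs did not. Without ELS-HFD replicates 2 and 3 and HFD replicate 1, Pvalb was at 0.41 ± 0.16 (edgeR unadjusted p = 0.0219, adjusted p = 0.941) and Camk2a at -0.05 ± 0.16 (adjusted p = 0.989). The edgeR unadjusted p of Pvalb was also under 0.05 without HFD replicate 1 (0.0176), without control replicate 3 (0.0312), in a fit to ELS-HFD and control alone (0.0206) and with column sums (0.0419), with adjusted p from 0.324 to 0.851. The 3 comparisons with control share the same 5 control libraries.

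For ELS-HFD against HFD they ran from -0.26 ± 0.29 (SE) for Slc17a6 to 0.04 ± 0.20 for Pvalb, with edgeR adjusted p at 1.00 for all 7. None of the 7 was at an unadjusted p under 0.05 (none by DESeq2), where 3.38% of all IDs were. The groups overlapped for all 7, where 0.722% of IDs did not. Without HFD replicate 1, Pvalb was at 0.35 and Slc32a1 at 0.24 (-0.23 with it).

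The interaction is the ELS-HFD minus ELS difference less the HFD minus control difference. It was -0.56 ± 0.28 (SE) for Gad2 (edgeR unadjusted p = 0.0608, adjusted p = 0.972) and -0.29 ± 0.16 for Gad1 (adjusted p = 1.00), with Slc17a7 at 0.26 ± 0.25. None of the 7 was at an unadjusted p under 0.05 (none by DESeq2), where 5.13% of all IDs were. Without the 3 libraries that stood apart it was -0.70 for Gad2 (edgeR unadjusted p = 0.0442, adjusted p = 0.377) and -0.38 for Gad1 (unadjusted p = 0.047, adjusted p = 0.38). That the difference in Gad2 from ELS to ELS-HFD departs from the difference between HFD and control was therefore not shown.

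**Figure D5:**
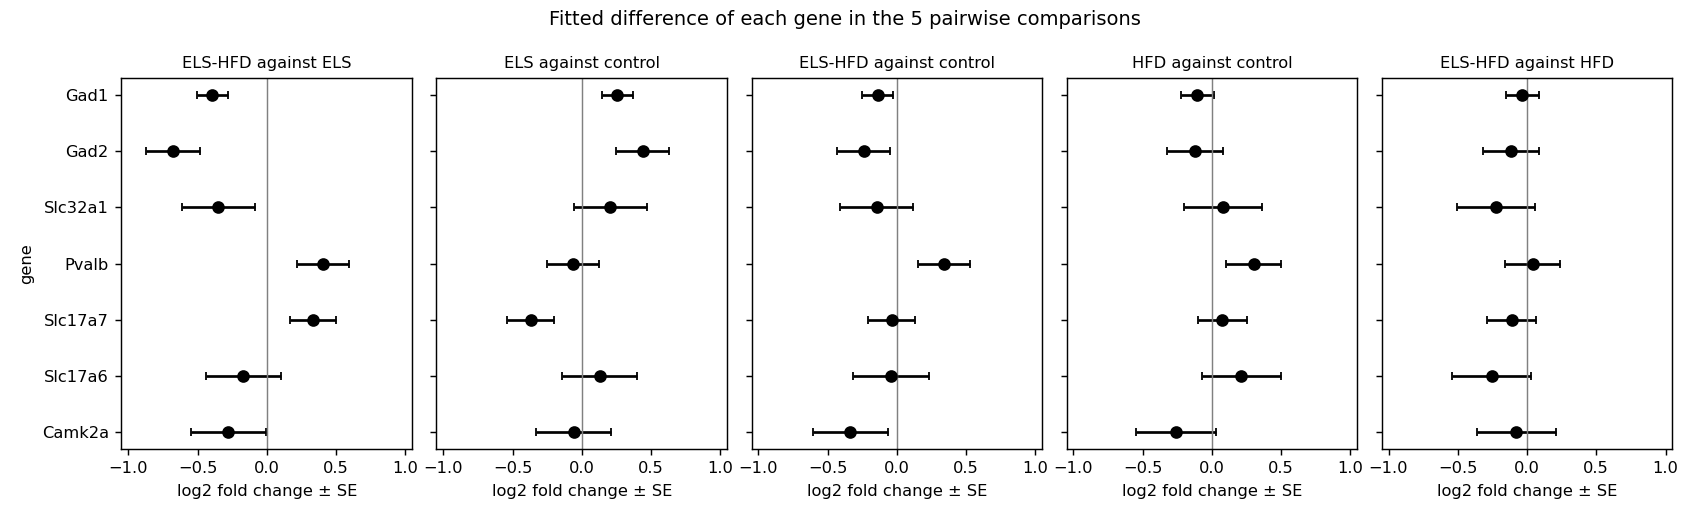
Fitted log2 fold change with its SE for each gene in the 5 pairwise comparisons, all on 1 horizontal scale. Gad1 and Gad2 lie left of 0 and Slc17a7 right of it in ELS-HFD against ELS (-0.68 for Gad2, 0.33 for Slc17a7), the sides are exchanged in ELS against control (0.44 and -0.37), and no point passes an adjusted p of 0.05.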

How the data were processed

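The values are raw read counts of Ensembl gene IDs, as the authors deposited them (whole numbers, per the file headers). The file is named for featureCounts, and the submitters' processing notes name Rnor_6.0 and DESeq2. Aligner, annotation release, strand setting and treatment of reads matching several genes: not given in the sources used here. About 400 ng of RNA per library was enriched for polyadenylated RNA and randomly primed, per the labels' protocols. Each of the 19 column names carries a number that 1 sample's description gives, and this tied column to sample. The closest pair of libraries of a group, ELS-HFD replicates 2 and 3, differed by 5.61 times the sampling variance per ID, so none was treated as a duplicate. ELS replicates 1 and 4 came next, at 7.28, with the other pairs of ELS libraries between 10.9 and 36.5. With no litter given, whether either pair are sisters is not known.

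Levels are CPM from column sums. Differences were tested with edgeR 4.0.16 (R 4.3.3) as quasi-likelihood F tests on 15372 IDs kept by filterByExpr, with TMM scaling, group as the only term and calls at an adjusted p of 0.05. The SE is the log2 fold change divided by the square root of F. On counts simulated for HFD against control (15222 IDs), 65.3% of IDs changed 2-fold and 95.2% of those changed 4-fold were recovered, with 11 false of 173 calls. The simulated IDs varied independently around a common mean profile, without outlying libraries, and the changed IDs had a minimum mean level. The largest fitted difference of the 7 genes (-0.68 on the log2 scale, Gad2 in ELS-HFD against ELS) is smaller than 2-fold. These rates therefore do not give the power for the 7 genes in the real libraries. Correlations used 100000 two-sided permutations, adjusted over 21 pairs. DESeq2 1.42.0, other scalings, no filter, fits to 2 groups, a replicate block and leaving out libraries were alternatives. A balance against Slc17a7 or Camk2a alone was added after seeing the data.

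The members, lists and alternatives were chosen with earlier results of these data known. The 7 members are named by rule, and 2 other IDs by their correlation with the balance. A further ID was named after its values were seen. Marker lists of other cell types need symbols for other IDs and were not analysed here.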

Additional observations from a re-analysis of the deposited data

Results flagged for a closer look

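Of 32 groups of values examined (the log2 CPM of each of the 7 genes and the balance, in each paternal group), 2 had 1 library well outside the others (chance alone does this in about 1 in 20 groups). Gad2 in control replicate 3 was at 8.36 on the log2 CPM scale, below the other 4 controls, and the same library had the highest Slc17a7 of the series at 1673 CPM. Pvalb in ELS-HFD replicate 5 was at 5.39, above the other 4 ELS-HFD libraries. Without that library the fitted Pvalb difference of ELS-HFD against ELS was 0.31 in place of 0.41 (edgeR unadjusted p = 0.124), and that of ELS-HFD against control was 0.25 in place of 0.34.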

How the results depend on the processing

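The count of the 7 genes called by edgeR was 0 in each comparison under every alternative except 1: without HFD replicate 1 it was 3 for ELS-HFD against ELS (0 to 3 over the libraries left out). All other 154 counts stayed at 0, among them those with DESeq2 size factors, column sums, no filter, the DESeq2 test, fits to the compared groups alone and the replicate block. Replicate numbers gave no clear sign of marking pairs. Deviations of same-numbered libraries had a median r of -0.05, against 0.004 for other pairs between groups. They correlated over 0.1 in 9 of 27 pairs, and 6 of 19 libraries correlated best with their own number. The block result (0 genes called in all 6 comparisons, with Gad2 at -0.64 for ELS-HFD against ELS) is therefore given for completeness. Balances under the block were 0.05 for HFD against control, 0.02 for ELS-HFD against HFD and -0.58 for the interaction.

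Under the alternatives 40 fold changes changed sign, none of them called, and 1042 kept their sign and call. Leaving out 1 library did so where the range crosses 0. For HFD against control the ranges were Slc32a1 -0.37 to 0.24, Camk2a -0.43 to 0.015. For ELS against control the ranges were Pvalb -0.17 to 0.044, Slc17a6 -0.0012 to 0.32, Camk2a -0.16 to 0.018. For ELS-HFD against control the ranges were Slc32a1 -0.26 to 0.015, Slc17a7 -0.11 to 0.040, Slc17a6 -0.14 to 0.11. For ELS-HFD against HFD the ranges were Gad1 -0.080 to 0.032, Slc32a1 -0.39 to 0.24, Pvalb -0.078 to 0.35, Camk2a -0.34 to 0.094. For the interaction the ranges were Slc32a1 -0.59 to 0.037, Pvalb -0.012 to 0.42, Camk2a -0.28 to 0.15. With column sums alone, HFD against control was -0.093 for Slc32a1 and -0.026 for Slc17a7, Gad1 was 0.065 for ELS-HFD against HFD and the Camk2a interaction was 0.0011 (0.068 under the replicate block). Without the 3 libraries that stood apart, Slc32a1 was -0.37 and Camk2a 0.015 for HFD against control, Slc17a7 was 0.027 for ELS-HFD against control and Camk2a 0.0067 for ELS-HFD against ELS. The causes were not tested. The balance of HFD against control changed sign by more than 1 SD in 1 case, at 0.34 with Camk2a as the only glutamatergic gene, and the other 120 balances moved by less than 1 SD. That SD was the pooled SD between libraries, for example 0.48 for ELS-HFD against ELS, where the difference was -0.43. Such a difference could vanish and still be counted as moved by less than 1 SD, so this count does not show stability. Correlations changed sign for Gad1, Gad2 and Pvalb with Camk2a without the 3 libraries (-0.34, -0.35 and 0.21). From deviations around group means they did so for Gad1 and Gad2 with Camk2a (-0.22 and -0.14) and for Slc32a1 with Pvalb (0.062). Depth limits Slc17a6 and Pvalb most, at a minimum of 134 and 206 reads.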
